A study of Mus musculus with 28 samples.

Results

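The immediate early genes Fos, Fosb, Jun, Junb, Egr1, Egr2, Ier2, Atf3, Klf6 and Dusp1 were taken by symbol from a table of 17342 genes measured by RNA-seq, and all 10 were present. They were measured in 7 libraries made from the male mouse embryonic stem cell (ESC) line V6.5, of a mixed 129/C57BL/6 background, grown in serum with the self-renewal factor LIF. The groups were wild-type cells (Tet2-WT, n = 3 independent ESC cultures), cells with mutant Tet2 (Tet2-Mut, n = 2 clones) and Tet2 knockout cells (Tet2-KO, n = 2 clones). The Tet2 enzyme oxidizes methylated cytosines of DNA, and the study set the knockout beside the mutant to ask about roles of Tet2 that do not need catalysis; the labels do not describe the mutation. All groups were kept on feeder fibroblasts, freed of them by pre-plating and left on gelatin overnight before RNA was extracted. Each genotype other than Tet2-WT rests on a pair of clones, so a difference between clones and a difference between genotypes are hard to separate.

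Immediate early genes are transcribed within minutes of a stimulus, without new protein synthesis, when MAP kinases such as p38 and JNK act on transcription factors already bound at their promoters. Serum response factor with its Elk partners, and the cyclic AMP response element binding protein, are the best known of these. Many of the products are transcription factors themselves: Fos, Jun and Atf3 proteins pair through leucine zippers to form AP-1 and related dimers, and Egr and Klf proteins bind GC-rich DNA through zinc fingers. Others end the response, such as the phosphatase Dusp1, which removes the activating phosphates from the same kinases. In ESCs, MAP kinase signalling is driven mainly by FGF4 that the cells make, and serum and replating can each raise these transcripts.

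Values are read counts per gene divided by a size factor per library, as the authors deposited them, and are called normalized counts. Reads assigned to genes came to between 41.9 M and 58.5 M per library. Tet2 itself had normalized counts of 10343, 10244 and 12074 in Tet2-WT replicates 1, 2 and 3, of 9992 and 13181 in Tet2-Mut replicates 1 and 2, and of 4624 and 5206 in Tet2-KO replicates 1 and 2. Both Tet2-KO libraries had the lowest values (log2 fold change against Tet2-WT -1.15, SE 0.12, limma adjusted p = 0.00522). The 10 ESC markers summed to between 270927 and 329606 normalized counts, lowest in Tet2-KO replicate 1, and none was at 0 in any library. Tet2-KO replicate 2 summed to 327065. By sign 9 of the 10 were lower in Tet2-KO than in Tet2-WT, beside 8731 of all 17338 genes tested. Their median log2 fold change was -0.13. Tdgf1 was called lower (-0.37, limma adjusted p = 0.0231), beside 2.91% of all genes. In Tet2-Mut, Nanog was called lower (-0.37, limma adjusted p = 0.0457), beside 1.98% of all genes. Several libraries stood apart on whole chromosomes. The median gene of chromosome 8 deviated from the Tet2-WT mean by 0.29 and 0.27 (log2) in Tet2-Mut replicates 1 and 2, and by -0.28 and -0.24 in Tet2-KO replicates 1 and 2. The median of chromosome 14 lay 0.49 above it in Tet2-Mut replicate 2. The Y-linked gene Ddx3y stood at 5.79 in Tet2-Mut replicate 2 and 43.4 in Tet2-KO replicate 1, against 595 to 2143 in the other libraries. Fibroblast markers were higher in Tet2-KO and are given below beside the early genes.

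The 10 genes did not move as a block. In Tet2-KO, Jun and Klf6 were higher and Dusp1 lower than in Tet2-WT. In Tet2-Mut, Ier2 was higher and Dusp1 lower than in Tet2-WT. Between the genotypes, Jun and Klf6 were higher and Ier2 lower in Tet2-KO than in Tet2-Mut. Differences were tested with limma on log2(normalized count + 1) over all genes that reached 10 normalized counts in 2 or more libraries, and called at a Benjamini-Hochberg adjusted p under 0.05. All 10 genes entered the test. For Tet2-KO against Tet2-WT, 3 of 10 were called, 2 higher and 1 lower, where 5.91% of all 17338 genes tested were called, 3% higher and 2.91% lower. For Tet2-Mut against Tet2-WT, 2 of 10 were called, 1 higher and 1 lower, against 3.43% of all genes, 1.44% higher and 1.98% lower. For Tet2-KO against Tet2-Mut, 3 of 10 were called, 2 higher and 1 lower, against 6.19% of all genes, 2.64% higher and 3.55% lower. The libraries of the 2 groups did not overlap for 6 of the 10 genes in the first comparison, 4 higher and 2 lower, where 44.7% of all genes did not, 21.9% higher and 22.8% lower. In the comparison of Tet2-Mut with Tet2-WT 4 genes were higher and 2 lower without overlap, where 40.7% of all genes did not overlap, 20.9% higher and 19.8% lower. Between Tet2-KO and Tet2-Mut 4 were higher and 4 lower, where 44.8% did not overlap, 23.3% higher and 21.5% lower. The median log2 fold changes of the 10 genes were 0.33, 0.31 and 0.27, and those of all genes were -0.0021, 0.0093 and 0.0048. The comparisons share libraries, so their counts are not independent of each other.

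**Figure D1:**
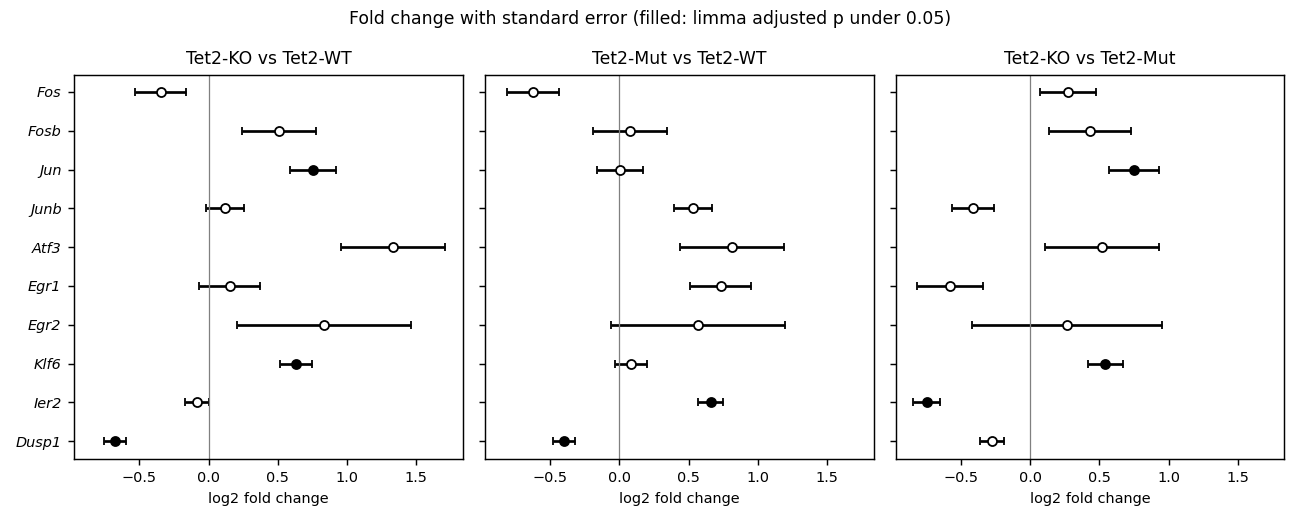
Log2 fold change (x axis) of each of the 10 genes in the 3 comparisons, with bars of 1 standard error; filled points passed the limma test at an adjusted p under 0.05. Dusp1 lies left of 0 in every panel, with -0.67, -0.40 and -0.27, and Jun lies at 0.76, 0.00 and 0.75.

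The counts rested on single libraries. For Tet2-KO against Tet2-WT, 1 of 10 was called without Tet2-WT replicate 1, 2 or 3 or without Tet2-KO replicate 1, and 4 when Tet2-KO replicate 2 or either Tet2-Mut library was omitted. For Tet2-Mut against Tet2-WT, omitting Tet2-WT replicate 1 or 2 left 0 limma calls, while 5 had an unadjusted p under 0.05 and edgeR also called 0. It called 1 without Tet2-WT replicate 3 or Tet2-Mut replicate 2, and 4 without Tet2-Mut replicate 1. For Tet2-KO against Tet2-Mut, 1 was called without any Tet2-WT library, Tet2-Mut replicate 2 or Tet2-KO replicate 1, and 4 without Tet2-Mut replicate 1. The number of all genes called moved in the same runs, between 85 and 2158, 6 and 2198, and 530 and 2679.

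**Figure D2:**
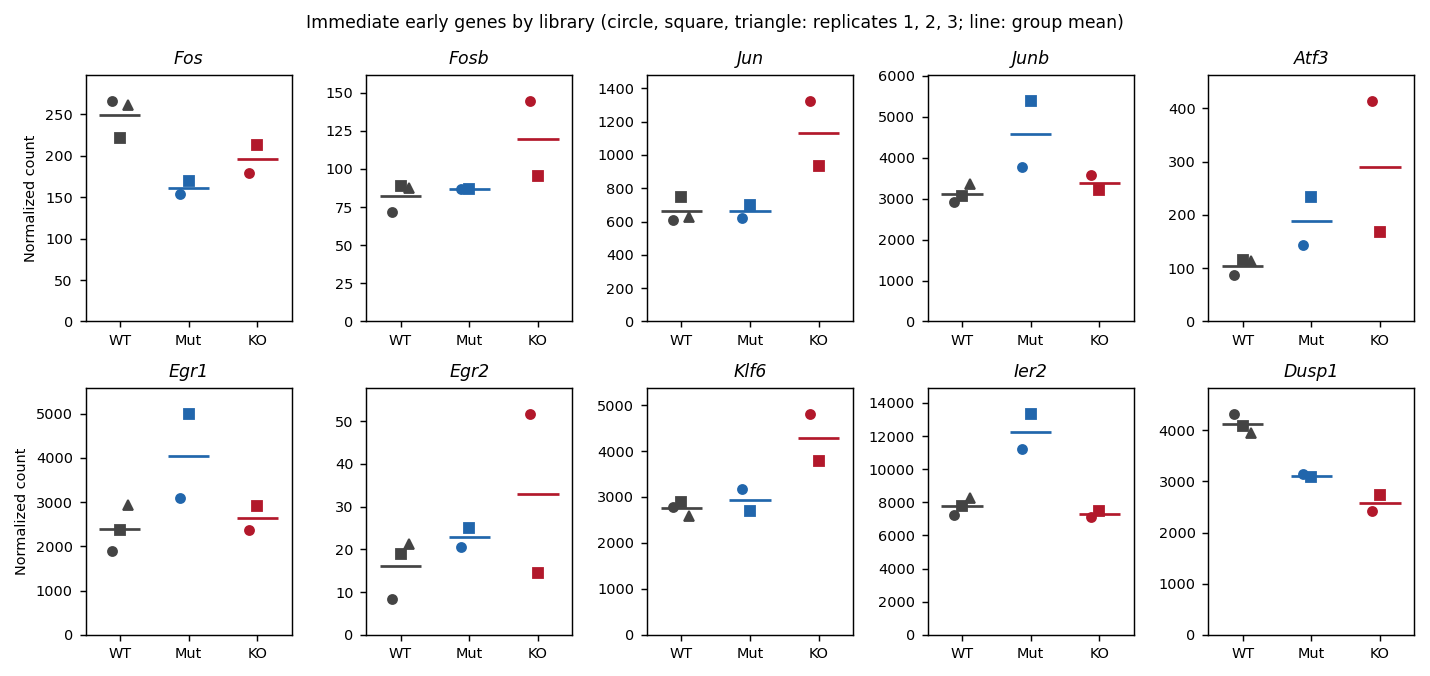
Normalized count (y axis, from 0, with its own scale per gene) of each gene in the 3 Tet2-WT, 2 Tet2-Mut and 2 Tet2-KO libraries; each point is a library and each line a group mean. Jun and Klf6 are highest in both Tet2-KO libraries, Junb, Egr1 and Ier2 in both Tet2-Mut libraries, and Fos and Dusp1 in the 3 Tet2-WT libraries.

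Fos (chromosome 12, 85473890 to 85477274, GRCm38.p6) encodes the partner that joins Jun proteins in AP-1. Its normalized counts were 266, 221 and 262 in Tet2-WT replicates 1, 2 and 3, 153 and 170 in Tet2-Mut replicates 1 and 2, and 180 and 213 in Tet2-KO replicates 1 and 2. All Tet2-WT libraries stood above all others, and the Tet2-Mut and Tet2-KO ranges did not overlap either. The means were 250 ± 24.9 (SD, n = 3), 162 ± 11.6 (n = 2) and 196 ± 23.6 (n = 2). No difference passed the test: the log2 fold change was -0.62 in Tet2-Mut (SE 0.19, limma adjusted p = 0.101) and -0.35 in Tet2-KO (SE 0.19, adjusted p = 0.303). With DESeq2 on whole reads recovered from the table, the Tet2-Mut difference was called (adjusted p = 0.0387, against 0.0387 to 0.336 over all alternatives).

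Fosb (chromosome 7, 19302696 to 19310118), a close relative of Fos that also pairs with Jun proteins, had normalized counts of 71.6, 88.5 and 87.3 in the Tet2-WT libraries. It had 86.5 and 86.8 in Tet2-Mut replicates 1 and 2, and 145 and 95.1 in Tet2-KO replicates 1 and 2. A single library, Tet2-KO replicate 1, stood apart, and no comparison passed the test (for Tet2-KO against Tet2-WT, log2 fold change 0.51, SE 0.27, adjusted p = 0.298).

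Jun (chromosome 4, 95049036 to 95052222), the AP-1 subunit that JNK phosphorylates and that can act on its own promoter, rose in Tet2-KO. Its normalized counts were 607, 748 and 628 in Tet2-WT, 621 and 701 in Tet2-Mut, and 1324 and 935 in Tet2-KO. Both Tet2-KO clones lay above every other library, and the Tet2-WT and Tet2-Mut libraries overlapped. The log2 fold change was 0.76 against Tet2-WT (SE 0.17, adjusted p = 0.0334, 1.69-fold) and 0.75 against Tet2-Mut (SE 0.18, adjusted p = 0.0438). Against Tet2-WT the call was lost on omitting any Tet2-WT library, or Tet2-KO replicate 1, where the log2 fold change was 0.51 and the adjusted p = 0.213 (0.000458 to 0.213 over all alternatives). Against Tet2-Mut it was lost when any library except Tet2-KO replicate 2 was left out. It was also lost with quantile normalization, with chromosome medians subtracted or with only the 2 groups in the fit. Both calls were lost with the replicate number as a block and without a trend of the spread with the mean.

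Junb (chromosome 8, 84976909 to 84978748), a Jun relative that activates a narrower set of AP-1 sites, had normalized counts of 2923, 3072 and 3362 in Tet2-WT. It had 3767 and 5384 in Tet2-Mut replicates 1 and 2, and 3572 and 3203 in Tet2-KO replicates 1 and 2. Both Tet2-Mut libraries were above all others, most of all replicate 2. The means were 3119 ± 224 (SD, n = 3), 4575 ± 1144 (n = 2) and 3388 ± 261 (n = 2). No comparison passed: the log2 fold change of Tet2-Mut against Tet2-WT was 0.53 (SE 0.14, adjusted p = 0.073) and that of Tet2-KO against Tet2-Mut was -0.41 (SE 0.15, adjusted p = 0.166). Without Tet2-Mut replicate 1 both were called (adjusted p = 0.00189 and 0.00361, each the lowest over its alternatives, which reached 0.333 and 0.717). Tet2-Mut is then the higher library alone, assumed to vary like the other groups, so these calls say nothing of the spread between Tet2-Mut clones.

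Atf3 (chromosome 1, 191170296 to 191183333), a zipper protein of the ATF family induced by many stresses, varied most between clones of the genes above. Atf3 had normalized counts of 86.5, 115 and 113 in Tet2-WT, 144 and 233 in Tet2-Mut, and 414 and 167 in Tet2-KO. Every clone of either genotype was above every Tet2-WT library, while the Tet2-Mut and Tet2-KO ranges overlapped. The log2 fold change was 1.33 in Tet2-KO (SE 0.38, adjusted p = 0.0716) and 0.81 in Tet2-Mut (SE 0.38, adjusted p = 0.258). The Tet2-KO clones differed by 2.47-fold. EdgeR and DESeq2 called the Tet2-KO difference (adjusted p = 0.0487 and 0.00184), and without Tet2-KO replicate 1 the log2 fold change was 0.68 (adjusted p = 0.414); over all alternatives the adjusted p ran from 0.00184 to 0.414.

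Egr1 (chromosome 18, 34861207 to 34864956), a zinc finger factor that follows growth factor signalling closely, had normalized counts of 1902, 2366 and 2936 in Tet2-WT. It had 3089 and 4985 in Tet2-Mut replicates 1 and 2, and 2373 and 2913 in Tet2-KO replicates 1 and 2. Tet2-WT and Tet2-KO overlapped, and the Tet2-Mut libraries lay above both. Egr1 varied by 1.54-fold among the Tet2-WT cultures alone. The log2 fold change of Tet2-Mut against Tet2-WT was 0.73 (SE 0.22, adjusted p = 0.105) and did not pass, nor did that of Tet2-KO against Tet2-Mut (-0.58, SE 0.24, adjusted p = 0.222). As with Junb, both were called with the higher Tet2-Mut library alone, replicate 2, its spread again taken from the other groups (adjusted p = 0.00841 and 0.0174, where the alternatives ran from 0.0071 to 0.385 and from 0.0174 to 0.69).

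Egr2 (chromosome 10, 67534469 to 67542188), a relative of Egr1 best known from hindbrain and Schwann cell development, had few reads. There were 10, 20 and 18 reads in Tet2-WT, 20 and 26 in Tet2-Mut and 50 and 14 in Tet2-KO, or normalized counts of 8.32, 18.8, 21.2, 20.6, 25.1, 51.6 and 14.5 in the same order. The groups overlapped in all 3 comparisons, and none passed the test (limma adjusted p = 0.476, 0.656 and 0.874). The Tet2-KO clones differed by 3.57-fold, with replicate 1 the higher. All 7 read numbers are even, as were 72.1% to 75.2% of all values from 1 to 20 reads in these libraries, so the reads are not independent molecules.

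Klf6 (chromosome 13, 5861489 to 5870393), a Kruppel-like zinc finger factor that responds to growth factors, rose in Tet2-KO. Klf6 had normalized counts of 2791, 2894 and 2579 in Tet2-WT, 3168 and 2694 in Tet2-Mut, and 4801 and 3780 in Tet2-KO. Both Tet2-KO libraries lay above all others, and Tet2-WT and Tet2-Mut overlapped. The log2 fold change was 0.63 against Tet2-WT (SE 0.12, adjusted p = 0.0206, 1.55-fold) and 0.54 against Tet2-Mut (SE 0.13, adjusted p = 0.0395). Against Tet2-WT the call was lost on omitting any Tet2-WT library or Tet2-KO replicate 1 (log2 fold change 0.46, adjusted p = 0.138, the highest over all alternatives, which began at 5.25e-05). Against Tet2-Mut it was lost without any Tet2-WT library, Tet2-Mut replicate 2 or Tet2-KO replicate 1, and with only the 2 groups in the fit. Both calls were lost with the replicate number as a block and without a trend of the spread with the mean.

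The promoters of Jun and Klf6 are shown because these were the pair higher in Tet2-KO than in both other groups, and because the same 8 letters stand in both. They are the 250 bases before the RefSeq start (GRCm38.p6, 5′ to 3′ on the strand of the gene), for Jun chr4:95052223-95052472 on the minus strand and for Klf6 chr13:5861239-5861488 on the plus strand. The capitals mark TGACATCA, the element through which AP-1 and ATF proteins act on the Jun promoter.
Jun: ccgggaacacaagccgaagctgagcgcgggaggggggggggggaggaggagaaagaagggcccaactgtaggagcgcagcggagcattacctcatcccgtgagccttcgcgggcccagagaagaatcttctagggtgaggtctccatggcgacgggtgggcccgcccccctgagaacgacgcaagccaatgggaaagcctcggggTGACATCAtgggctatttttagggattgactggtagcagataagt
Klf6: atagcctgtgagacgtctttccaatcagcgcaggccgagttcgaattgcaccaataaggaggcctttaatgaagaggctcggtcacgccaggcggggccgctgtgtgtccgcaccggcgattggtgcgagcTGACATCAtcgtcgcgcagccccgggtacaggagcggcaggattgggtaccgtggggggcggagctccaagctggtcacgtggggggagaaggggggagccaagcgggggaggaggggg
The element begins 45 bases before the start of Jun and 119 bases before that of Klf6. It was searched on both strands, and 2.93% of 32851 RefSeq promoter windows of this length hold it. Of the 8 members with a promoter in the table it was found in these alone. A match of letters is a description and does not show that a protein binds there. The AP-1 letters TGANTCA were in no window of the 8 genes (6.75% of all windows), the Egr letters GCGNGGGCG only in that of Fosb (4.70%), where they overlap a GC box, GGGCGG, and the TATA letters TATAAA only in that of Fos (12.4%). The CArG box, the site of serum response factor, was found only at Egr2 (1.47% of all windows), which says nothing of sites farther upstream of the other genes.

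Ier2 (chromosome 8, 84661331 to 84662852), an early gene whose short nuclear protein has a less settled role, rose in Tet2-Mut. Its normalized counts were 7208, 7773 and 8270 in Tet2-WT, 11230 and 13317 in Tet2-Mut, and 7109 and 7494 in Tet2-KO. Both Tet2-Mut libraries lay above all others, and Tet2-WT and Tet2-KO overlapped. The log2 fold change was 0.66 for Tet2-Mut against Tet2-WT (SE 0.09, adjusted p = 0.0144, 1.58-fold) and -0.74 for Tet2-KO against Tet2-Mut (SE 0.10, adjusted p = 0.00457). The first call was lost without Tet2-WT replicate 1 or 2 (highest adjusted p 0.101). It was also lost with the replicate number as a block or without a trend of the spread with the mean. The other call held in all 7 fits that omitted a library. It did not hold with only the 2 groups in the fit or without that trend (adjusted p = 0.0671 and 0.0683).

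Ier2 and Junb lie on chromosome 8, whose median gene moved with the genotype. The median log2 fold change of its 861 tested genes was 0.27 for Tet2-Mut against Tet2-WT, -0.26 for Tet2-KO against Tet2-WT and -0.52 for Tet2-KO against Tet2-Mut. In the comparison of Tet2-KO with Tet2-WT the medians of the other chromosomes ran from -0.03 to 0.07. After the median deviation of each chromosome was subtracted per library, an alternative chosen after the data were seen, Ier2 stood at 0.39 for Tet2-Mut against Tet2-WT (adjusted p = 0.0477, within 1.41e-07 to 0.131 over all alternatives). For Tet2-KO against Tet2-Mut it stood at -0.21 (adjusted p = 0.268, the highest over all alternatives, from 2e-08), so that call was lost. Its difference between Tet2-KO and Tet2-WT went from -0.08 to 0.18, neither called. Junb, which did not follow the chromosome median in Tet2-KO against Tet2-WT, went there from 0.12 to 0.38, in Tet2-Mut against Tet2-WT from 0.53 to 0.26 and for Tet2-KO against Tet2-Mut from -0.41 to 0.13, none of them called. Subtracting the chromosome medians left Dusp1, Jun and Klf6 at -0.68, 0.74 and 0.62 for Tet2-KO against Tet2-WT, all still called. Between Tet2-KO and Tet2-Mut it left Klf6 called (0.56, adjusted p = 0.0485, where all alternatives ran from 0.00256 to 0.188), and the Jun call was lost (0.73, adjusted p = 0.0658, where they ran from 0.00177 to 0.192).

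**Figure D3:**
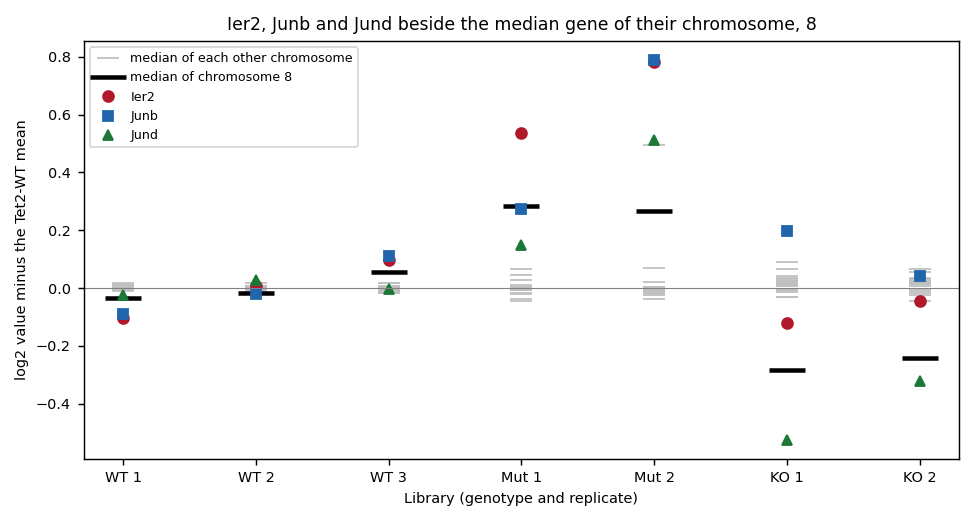
Log2 value minus the Tet2-WT mean (y axis) of Ier2, Junb and Jund, which lie on chromosome 8, in each library (x axis); black bars are the median of all tested genes of chromosome 8 and grey bars those of the other chromosomes. The chromosome 8 bar is at 0.29 and 0.27 in Tet2-Mut and at -0.28 and -0.24 in Tet2-KO, and Ier2 stands above it in all 4 of these libraries; the single high grey bar in Tet2-Mut replicate 2 is chromosome 14.

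Dusp1 (chromosome 17, 26505591 to 26508472), the nuclear phosphatase that turns off MAP kinases such as p38 and JNK, was lower in both genotypes than in Tet2-WT. Its normalized counts were 4312, 4090 and 3949 in Tet2-WT, 3137 and 3091 in Tet2-Mut, and 2425 and 2742 in Tet2-KO. The 3 groups did not overlap, with Tet2-WT highest and Tet2-KO lowest. The means were 4117 ± 183 (SD, n = 3), 3114 ± 32.3 (n = 2) and 2583 ± 224 (n = 2). The log2 fold change was -0.67 in Tet2-KO (SE 0.08, adjusted p = 0.00551, 0.627-fold) and -0.40 in Tet2-Mut (SE 0.08, adjusted p = 0.0354, 0.757-fold). The Tet2-KO and Tet2-Mut neighbours in this order were not told apart by the test (-0.27, SE 0.09, adjusted p = 0.115). The fall in Tet2-KO was called in all 7 fits that omitted a library (adjusted p from 0.00148 to 0.0451). It was not called with the replicate block or without a trend of the spread with the mean (adjusted p up to 0.0742, from 1.01e-09 over all alternatives). The fall in Tet2-Mut was not called without any Tet2-WT library, without Tet2-Mut replicate 2, with that block or without that trend. Its log2 fold change ran from -0.43 to -0.37 over all alternatives.

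The Dusp1 promoter is shown because Dusp1 was the gene of the 10 called lower in both genotypes. It is the 250 bases before the RefSeq start on the minus strand, chr17:26508473-26508722 (GRCm38.p6), with the cyclic AMP response element TGACGTCA in capitals.
Dusp1: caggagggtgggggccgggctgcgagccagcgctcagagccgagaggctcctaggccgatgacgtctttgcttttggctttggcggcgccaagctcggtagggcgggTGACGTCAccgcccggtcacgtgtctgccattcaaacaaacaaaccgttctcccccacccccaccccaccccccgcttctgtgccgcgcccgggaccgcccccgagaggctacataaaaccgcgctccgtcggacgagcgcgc
The element begins 143 bases before the start. It was found in no other of the 8 genes with a promoter window, and 1.55% of all windows hold it. Neither TGACATCA nor TGANTCA was found in this window.

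The spread between libraries of one group differed among the 10 genes. The pooled SD within groups was 0.08 (log2) for Dusp1, at percentile 17.7 of all tested genes, and 0.11 for Ier2, at percentile 32.4. It was 0.55 for Atf3 and 0.79 for Egr2, at percentiles 85.1 and 94.0. The median over the 10 genes was 0.21, and that over all tested genes 0.18. Dusp1 and Ier2, which reached the smallest p-values, were thus also those with the least spread, and the fold change of Atf3 exceeded both without passing.

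The Tet2-KO clones differed in the same direction for most zipper and zinc finger members. Tet2-KO replicate 1 was above replicate 2 for Fosb, Jun, Junb, Atf3, Egr2 and Klf6, and below it for Fos, Egr1, Ier2 and Dusp1. The median of the fibroblast markers, a list chosen with the feeder cells in mind, was also higher in Tet2-KO replicate 1 than in replicate 2. Of 27 such markers 24 were in the table. By the limma test 8 of the 24 were called higher in Tet2-KO than in Tet2-WT and 0 lower, beside 3% and 2.91% of all genes. An unadjusted limma p under 0.05 was found for 19 of them, beside 4019 of all 17338 genes. The 24 summed to 28127 and 19379 normalized counts in Tet2-KO replicates 1 and 2, 14314 and 13620 in Tet2-Mut replicates 1 and 2, and 13318 to 13901 in Tet2-WT. Their median stood 1.58 and 0.89 (log2) above the Tet2-WT mean in the Tet2-KO clones, and 0.64 and 0.22 above it in the Tet2-Mut clones. Between the Tet2-Mut clones, Klf6 and Dusp1 were higher in replicate 1, as this median was. All other members were higher in Tet2-Mut replicate 2. Of 7 defining markers, Col3a1, Postn, Prrx1 and Twist2 were in the table, and Dcn, Lum and Fap were absent from it. None of the 4 present was at 0 in any library. They summed to 322 to 438 in Tet2-KO, 150 to 268 in Tet2-Mut and 106 to 166 in Tet2-WT. The source of the fibroblast marker transcripts was not tested, nor was their part in the changes of Jun, Klf6, Atf3 and Dusp1. In bulk RNA a change in the share of cells of one type and a change in RNA per cell cannot be told apart. Heat shock genes, a sign of handling, summed to between 902298 and 1011970 normalized counts over the 7 libraries. Hsp90ab1, Hsp90aa1 and Hspa8 made up most of this sum, with Tet2-WT means of 343193, 284943 and 176014. Hspa1a, at 57.8 to 104 over the libraries, and Hspa1b, at 320 to 510, hardly enter it. Neither was called in any comparison. Of 12, 0 were called for Tet2-KO against Tet2-WT, beside 5.91% of all genes. The co-chaperone gene Bag3 alone was called lower in Tet2-Mut than in Tet2-WT (-0.46, adjusted p = 0.0379), beside 3.43% of all genes. Between Tet2-KO and Tet2-Mut, Bag3 was called higher (0.63, adjusted p = 0.0103) and Dnajb1, on chromosome 8, lower (-0.50, adjusted p = 0.0271), beside 6.19% of all genes.

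**Figure D4:**
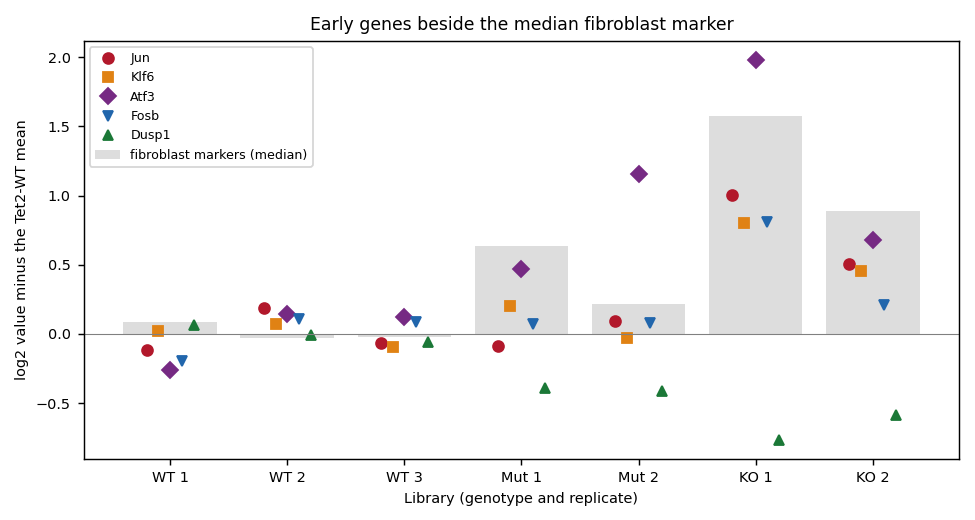
Log2 value minus the Tet2-WT mean (y axis) of Jun, Klf6, Atf3, Fosb and Dusp1 (points) in each library (x axis), over the median of the 24 fibroblast markers (grey bars). The bars reach 1.58 and 0.89 in Tet2-KO; Jun stands at 1.01 and 0.51 and Dusp1 at -0.76 and -0.59 in the same libraries, and in Tet2-Mut replicate 2 the bar is at 0.22 and Atf3 at 1.16.

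Across the 7 libraries the profiles of the members were compared by the root mean square difference of their centred log2 values, with no test. The smallest differences between members joined Fosb with Klf6 (0.15), Fosb with Jun (0.16) and Jun with Klf6 (0.16), which are highest in Tet2-KO replicate 1. Next came Junb with Ier2 (0.16), Junb with Egr1 (0.19) and Egr1 with Ier2 (0.20), highest in Tet2-Mut replicate 2, and then Fos with Dusp1 (0.23), highest in Tet2-WT. The last difference is nearly as large as the root mean square of either profile, 0.28 for Fos and 0.29 for Dusp1. Fos was lowest in Tet2-Mut and Dusp1 in Tet2-KO. Among 12318 other genes, the profiles nearest to Jun were those of Gdap1l1 (0.09) and Pphln1 (0.10), and nearest to Klf6 those of Plekha1 (0.06) and Olfm1 (0.07). The nearest to Dusp1 were Adam19 (0.07) and Spidr (0.08), and the nearest to Fos were Usp2 (0.07) and Prex1 (0.08). Fosb lay nearest to Arpc5 (0.07) and to Srf (0.08), the gene of serum response factor. The genes nearest to Ier2, Txnl4b and Tma16 (0.07 each), are on chromosome 8 as well. Junb lay nearest to Polr3a (0.04) and Zfp57 (0.05), Egr1 to Arxes1 and Slc35d1 (0.13 each), Egr2 to Ptger4 (0.23) and Coch (0.26), and Atf3 to Nefl (0.19) and Mfap3l (0.20). The mean profile of the 10 genes was nearest to Hyal2 (0.04), Stim2 (0.04), Slc38a1 (0.05), Arl14ep (0.06) and Zfp989 (0.06).

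Of the wider early response, 49 of 50 further genes in 3 lists were in the table. Against Tet2-WT, 6 of the 49 were higher and 1 lower in Tet2-KO, and 1 was lower in Tet2-Mut, beside the 5.91% and 3.43% of all genes called. Between Tet2-KO and Tet2-Mut, 5 were higher and 1 lower in Tet2-KO, beside 6.19% of all genes. Their median log2 fold changes were 0.16, 0.00 and 0.06. The lists were chosen with earlier results of these data known.

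Among effectors and feedback genes, 5 of 28 rose and 1 fell in Tet2-KO against Tet2-WT. Ccn1, a secreted matrix protein induced by serum response factor and YAP, had normalized counts of 1074, 1501 and 1278 in Tet2-WT, 1439 and 1688 in Tet2-Mut, and 6357 and 3006 in Tet2-KO (log2 fold change 1.78, SE 0.27, adjusted p = 0.0109). Dusp10, a phosphatase of p38 and JNK, had 68.2, 50.8 and 54.3 in Tet2-WT, 61.8 and 54.0 in Tet2-Mut, and 256 and 141 in Tet2-KO (1.71, SE 0.32, adjusted p = 0.0207). It thus rose where Dusp1, which acts on the same kinases, fell. Both were also higher in Tet2-KO than in Tet2-Mut (1.49 and 1.70, adjusted p = 0.0209 and 0.0236), calls lost without Tet2-WT replicate 3, and for Dusp10 also without Tet2-WT replicate 2, Tet2-Mut replicate 2 or Tet2-KO replicate 1. The kinase gene Sgk1 rose by 0.52 (adjusted p = 0.00722), the polo-like kinase gene Plk2 by 0.76 (adjusted p = 0.0175) and the small GTPase gene Rhob by 0.58 (adjusted p = 0.0135). Sik1, a kinase gene induced through cyclic AMP, had 8974, 7907 and 8699 in Tet2-WT, 6176 and 7204 in Tet2-Mut, and 5492 and 5797 in Tet2-KO (-0.59, SE 0.09, adjusted p = 0.0101). It stood in the same order of groups as Dusp1. Of these, Sgk1 alone was called in all 7 fits that omitted a library. Dusp10, Plk2, Rhob and Sik1 lost it without Tet2-KO replicate 1, and all but Sgk1 without Tet2-WT replicate 1 or 3.

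In Tet2-Mut, Gadd45b, a stress-induced regulator of p38 signalling, had 757 and 656 normalized counts against 1480, 1268 and 1141 in Tet2-WT, and 918 and 1083 in Tet2-KO. Its log2 fold change of Tet2-Mut against Tet2-WT was -0.87 (SE 0.14, adjusted p = 0.0227), and the call was lost without Tet2-WT replicate 1 or 2 or without Tet2-Mut replicate 2. The feedback genes Btg2 and Rhob were higher in Tet2-KO than in Tet2-Mut, by 0.52 and 0.51 (adjusted p = 0.0436 and 0.0221). The Btg2 call was lost on omitting any library except Tet2-Mut replicate 1, and the Rhob call without Tet2-WT replicate 2 or 3 or either Tet2-KO library.

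Among other early transcription factors, 1 of 11 tested was called in Tet2-KO, Egr3, a relative of Egr1 and Egr2. It had normalized counts of 11.7, 16.0 and 11.8 in Tet2-WT, 28.8 and 25.1 in Tet2-Mut, and 56.8 and 50.7 in Tet2-KO (log2 fold change 1.96, SE 0.39, adjusted p = 0.0258). The groups did not overlap, and the call was lost when any Tet2-WT or Tet2-KO library was left out. Of 10 other AP-1 and partner genes, 2 were called, both between Tet2-KO and Tet2-Mut: Fosl2 was higher (0.84, adjusted p = 0.0401) and Jund lower (-0.75, adjusted p = 0.00818) in Tet2-KO. The Fosl2 call was lost on omitting any library except Tet2-Mut replicate 1. Jund, a Jun relative with a steadier level, lies on chromosome 8, with normalized counts of 5200, 5397 and 5283 in Tet2-WT, 5865 and 7540 in Tet2-Mut, and 3680 and 4237 in Tet2-KO. Its call was lost when the chromosome medians were subtracted (adjusted p = 0.376, the highest over all alternatives, from 1.38e-06).

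Kinases and factors that act upstream were measured as a further list. Of its 23 measured genes, among them Srf, Elk1 and Creb1, limma called 0 in any comparison, beside 5.91%, 3.43% and 6.19% of all genes. Unadjusted limma p-values under 0.05 were found for 4, 6 and 2 of them, beside 4019, 3651 and 3499 of all 17338 genes. EdgeR also called 0 of the 23 each time, and DESeq2 called 1, 1 and 0. Srf had normalized counts of 3315, 3611 and 3648 in Tet2-WT, 4071 and 4011 in Tet2-Mut, and 5834 and 4089 in Tet2-KO (for Tet2-KO against Tet2-WT, log2 fold change 0.47, SE 0.13, adjusted p = 0.0671). Against Tet2-WT, 13 of the 23 genes were higher and 10 lower in Tet2-KO, and 12 higher and 11 lower in Tet2-Mut, counted by sign alone.

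**Figure D5:**
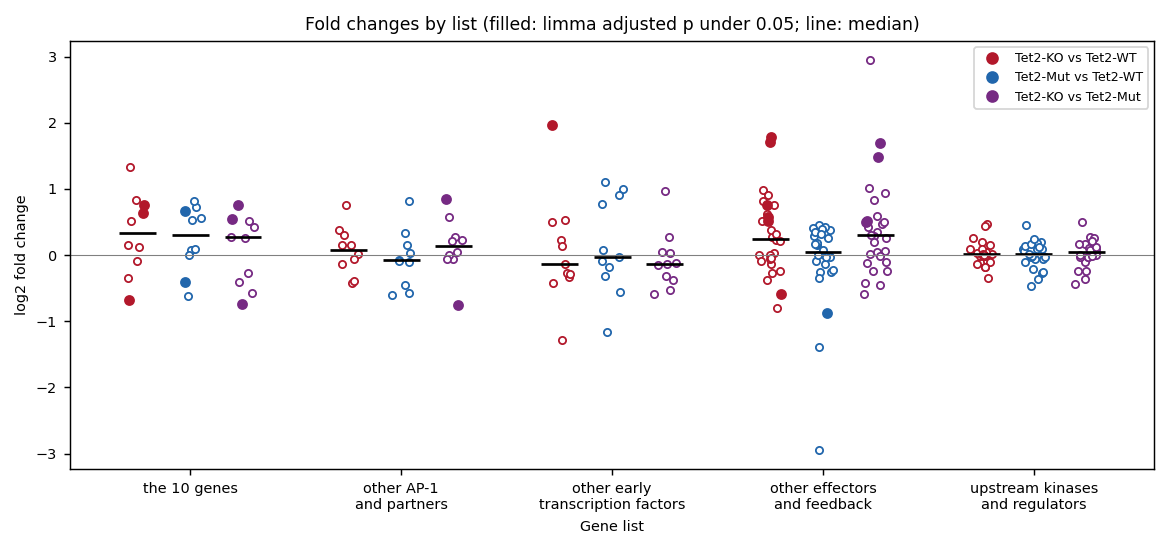
Log2 fold change (y axis) of each gene, grouped by list (x axis) and coloured by comparison; filled points passed the limma test at an adjusted p under 0.05 and lines are medians. The upstream list has no filled point and medians of 0.02, 0.02 and 0.05, and the highest filled points of the 10 genes are Jun at 0.76 and 0.75.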

How the data were processed

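The authors deposited normalized counts: reads per gene over a size factor for each library, a signal on a linear scale. The submitters' processing notes name Trim Galore 0.6.5, STAR 2.7.3a, featureCounts, DESeq2 and build mm10. Annotation and strand setting are not given in the sources used here, so a gene and an antisense partner cannot be told apart. Every value was a whole multiple of 1 step per library within 0.01 reads (100% of values), so whole reads were recovered for edgeR and DESeq2. In Tet2-WT replicate 1 no gene had a single read, and its step was taken from the gaps between values. Of values from 1 to 20 reads, 72.1% to 75.2% were even, so the count models may treat both mates of a pair as separate reads. The lowest total per gene was 71 reads, so the table had been filtered. The 3 bisulfite and 18 CUT&Tag samples were not analysed here.

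Group means of 7 libraries were fitted in 1 model with limma 3.58.1 (R 4.3.3) on log2(normalized count + 1), with a prior that follows the mean, for 17338 genes; fold changes of low genes are understated. Clones lay farther apart (chi-square per degree of freedom 45.1 and 34.2) than Tet2-WT cultures (7.19 to 13.4), so the shared spread can make p-values too small; no pair agreed within sampling noise. P-values measure the spread between these cultures and clones. Alternatives were edgeR 4.0.16, DESeq2 1.42.0 and other scalings, filters, pseudocounts and sets of libraries. On simulated counts the share of false calls was above the threshold of 0.05 for each tool and comparison. Members and lists were chosen with earlier results of these data known. All 10 members are named, with called genes of the other early-response lists, up to 6 per list and comparison. The nearest profiles are named among genes with a mean of at least 50. Called fibroblast markers are given as counts. Srf, the upstream genes named beside it, Ddx3y, the defining fibroblast markers and the heat shock and ESC markers given were named beyond this rule. Positions and promoters are from RefSeq, GRCm38.p6, where 92.8% of table symbols matched; 8 of the 10 genes had a promoter window. Replicate numbers are used here only to name libraries.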

Additional observations from a re-analysis of the deposited data

How the results depend on the processing

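Counts of called genes are given in the order Tet2-KO against Tet2-WT, Tet2-Mut against Tet2-WT, Tet2-KO against Tet2-Mut. The fits behind the report called 3, 2 and 3 of the 10 genes and 1025, 594 and 1074 of all genes. With only the 2 groups compared in each fit, all genes gave 2153, 901 and 0 (2351 at an unadjusted p under 0.05 in the last), the last count of the 10 genes was 0 (5 unadjusted), the other early-response genes gave 17, 5 and 0 and the upstream genes 1 in the first. Without a trend of the spread with the mean, all genes gave 19, 0 and 10, the 10 genes 0, 0 and 0 and the other early genes 1, 0 and 0. DESeq2 gave 1992, 1555 and 1808 for all genes, 5 of the 10 genes for Tet2-Mut, 13, 7 and 13 other early genes, and 1 upstream gene against Tet2-WT in each genotype. EdgeR called 4, 2 and 3 of the 10 genes. A minimum of 50, upper quartile scaling and quantile normalization each gave 2 other early genes for Tet2-Mut. Subtracting chromosome medians, chosen after the data were seen, gave 480 genes and 1 of the 10 for Tet2-KO against Tet2-Mut. The cause was not tested.

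With the replicate number as a block, limma called 15, 7 and 467 of all genes, 0, 0 and 1 of the 10 genes and 0, 0 and 1 other early genes. Deviations of same-numbered libraries correlated between -0.07 and 0.09. In a group with a pair of libraries the deviations mirror each other. These correlations therefore cannot tell whether same-numbered libraries were handled together.

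With 1 library omitted, all genes ranged over 85 to 2158, 6 to 2198 and 530 to 2679, the 10 genes over 1 to 4, 0 to 4 and 1 to 4, the other early genes over 1 to 17, 0 to 16 and 1 to 20, and the upstream genes over 0 to 1, 0 to 4 and 0 to 3. Differences near 0 changed sign. Jun in Tet2-Mut was at -0.0093 with upper quartile scaling, -0.030 with the block, and -0.084 to 0.10 with 1 library omitted. Subtracting chromosome medians turned Ier2 in Tet2-KO to 0.18 and Junb between Tet2-KO and Tet2-Mut to 0.13. With 1 library omitted, Tet2-KO against Tet2-WT ranged from -0.0035 to 0.31 for Egr1 and from -0.050 to 1.72 for Egr2. In Tet2-Mut, Fosb ranged from -0.020 to 0.13 and Klf6 from -0.030 to 0.20. Between Tet2-KO and Tet2-Mut, Egr2 ranged from -0.62 to 1.15 and Atf3 from -0.13 to 1.17. Egr2 had the fewest reads of the 10 genes, 10 to 50 per library. Fits that omit a Tet2-Mut or Tet2-KO library leave 1 in that group, assumed to vary like the other groups.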
